A study of Fukomys damarensis and Heterocephalus glaber and Mus musculus with 160 samples.

Results

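Promoters that carried active chromatin in both liver and heart were compared in 4 rodents: naked mole-rats (NMR in animal names), Damaraland mole-rats (DMR), guinea pigs and mice. Chromatin immunoprecipitation with sequencing (ChIP-seq) recovers DNA bound to a chosen histone modification or protein, and places with more reads than a control are called as peaks. Within each species a consensus region was built for each tissue and mark from peaks that overlapped a peak of another animal by at least 50% of the shorter one. A liver promoter was a liver H3K27ac region that overlapped a liver H3K4me3 region, and a heart promoter was defined likewise. A shared promoter was a liver promoter that overlapped a heart promoter, with the same 50% rule at every step. There were 56409 shared promoters among 70083 liver promoters, and 710729 consensus regions of both marks and tissues in all. Naked mole-rats had 16319 shared promoters, Damaraland mole-rats 15419, guinea pigs 12047 and mice 12624. These H3K27ac and H3K4me3 peaks chose the promoters, so widths, folds and ranks of these marks are given as descriptions without a test.

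A promoter is the stretch around the start of a gene where transcription begins. H3K4me3 is a methyl mark laid down at the starts of active genes, H3K27ac is an acetyl mark of active promoters and enhancers, and H3K4me1 is found at enhancers and on the flanks of promoters. Promoters active in every tissue are known to include those of genes that all cells use, while promoters of genes special to hepatocytes or heart muscle cells are active in 1 organ. No gene is assigned to a region here, because no annotation of these genome builds was used.

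All animals were wild-type adults. The mice were C57BL/6J males aged 2 months, and the guinea pigs were males aged 2.3 months. The naked mole-rats were males aged 13 to 17 months. The Damaraland mole-rats had estimated ages of 36 or 48 months, and all were males except DMR6, a female. Both tissues came largely from the same mole-rats and guinea pigs, whereas the livers and hearts of mice came from different animals. The mouse heart libraries of the marks came partly from different mice, and 1 mouse heart library was a pool of 3 animals. The promoters were chosen from 66 H3K27ac and H3K4me3 libraries in 16 groups of 2 to 6. A further 33 H3K4me1 libraries and 17 transcription factor libraries took no part in the choice. These are bulk tissues, so fewer cells carrying a mark and less mark per cell cannot be told apart.

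The lists held 14782 to 253457 peaks, and the read depth behind them is unknown. In most libraries over 90% of the shared promoters had a peak, and a few libraries stood apart. The NMR30 liver H3K4me3 list was the longest, and it had a peak at 81.6% of the shared promoters against 96.6 to 98.98% in the other 4 libraries. The NMR34 heart H3K4me3 library had a peak at 64.6% against 96.2 to 99.7%. The DMR1 heart H3K27ac library had a peak at 69.4% against 91.1 to 99.7%. The DMR11 heart H3K4me3 library had 88.6%, and the DMR2 liver H3K27ac library had a median peak width of 1115 bases there against 667 to 768. Without the first 3 of these libraries there were 16281 shared promoters in naked mole-rats and 15416 in Damaraland mole-rats. No 2 of the 1717 pairs of lists compared were identical.

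Most liver promoters were also heart promoters in every species. The shared share of liver promoters was 70.1% in naked mole-rats (95% Wilson interval 69.5 to 70.6), 83.6% in Damaraland mole-rats (83.1 to 84.2), 88.6% in guinea pigs (88.1 to 89.1) and 85.5% in mice (84.97 to 86.1). Seen from the heart, 83.4% of 19172 naked mole-rat heart promoters, 68.3% of 22730 in Damaraland mole-rats, 74.4% of 17838 in guinea pigs and 71.2% of 17600 in mice met a liver promoter. The naked mole-rat thus had the lower share from the liver side and the other 3 species from the heart side. The numbers of H3K27ac and H3K4me3 libraries were unlike between tissues. Naked mole-rats had 5 and 5 in liver and 3 and 4 in heart. Damaraland mole-rats had 5 and 2 in liver and 5 and 5 in heart. Mice had 4 and 4 in liver and 6 and 6 in heart, and guinea pigs had 3 of each. How far the shares follow these numbers was not tested. The intervals cover counting error only. Leaving out each library in turn moved the share of liver promoters from 63.1 to 72.0% in naked mole-rats, 80.01 to 83.9% in Damaraland mole-rats, 84.9 to 90.2% in guinea pigs and 83.8 to 87.2% in mice. Without the 3 libraries that stood apart, the share in naked mole-rats was 70.6%.

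**Figure D1:**
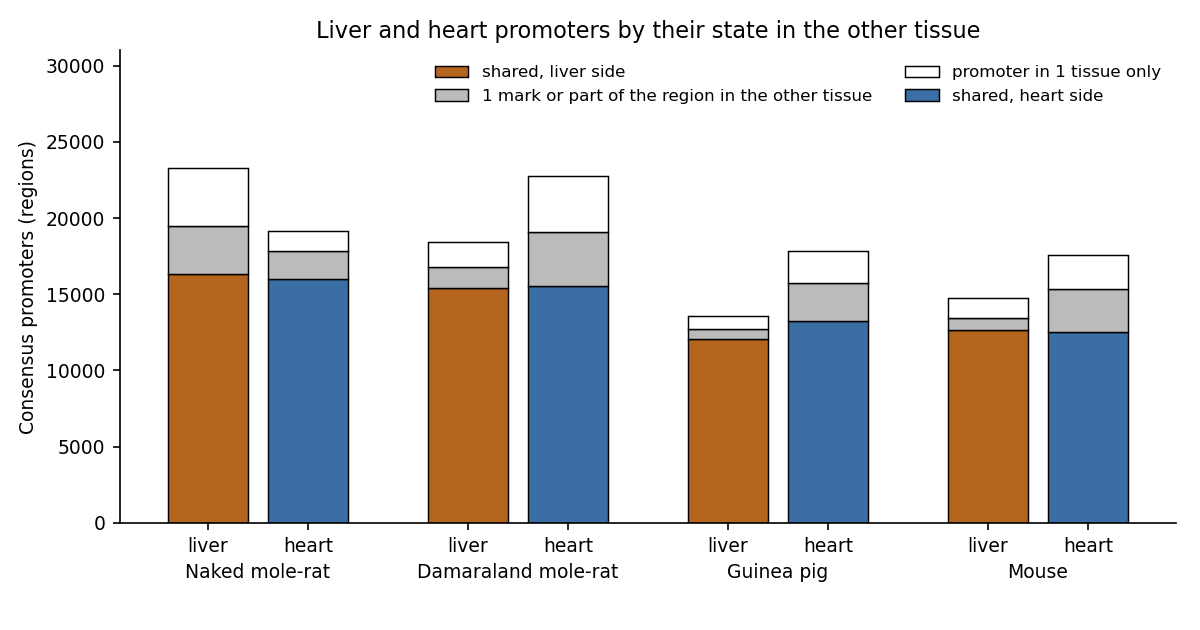
Number of consensus promoters (y axis, regions) in liver and heart of each species, divided into those shared with the other tissue, those with 1 mark or part of the region in the other tissue, and those found in 1 tissue only. The shared part is the largest of each bar, from 12047 to 16319 regions on the liver side.

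Promoters found in 1 tissue overlapped no H3K27ac or H3K4me3 region of the other tissue, and they serve below as the comparison. There were 3823 liver-only and 1351 heart-only promoters in naked mole-rats, 1670 and 3636 in Damaraland mole-rats, 882 and 2089 in guinea pigs, and 1293 and 2238 in mice. The remaining promoters had 1 mark, or a partial overlap, in the other tissue. A shared promoter met a single heart promoter in 96.8% of cases in naked mole-rats, 96.2% in Damaraland mole-rats, 89.8% in guinea pigs and 95.8% in mice. Where it met more than 1, heart widths, folds and ranks were read at the heart promoter with the largest overlap share, then the widest. Near the 50% threshold, the lowest overlap of a shared promoter with its heart promoter was 50.1% in Damaraland mole-rats and mice, 50.4% in guinea pigs and 50.9% in naked mole-rats. The highest overlap of a promoter that missed it was 49.4 to 49.98%. The shorter region lay wholly inside the other for 61.5 to 71.0% of shared promoters, and 14 to 45 per species lay within 10 percentage points above the threshold.

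Median widths of the H3K27ac region at shared promoters lay between 1030 and 1986 bases, and which tissue had the wider regions differed between species. The median liver width was 1030 bases in naked mole-rats, 1210 in Damaraland mole-rats, 1986 in guinea pigs and 1478.5 in mice. The median heart width was 1126, 1310, 1533 and 1869 bases in the same order. The median log2 of heart over liver width was 0.04 in naked mole-rats, 0.07 in Damaraland mole-rats, -0.27 in guinea pigs and 0.31 in mice. Heart regions were the wider for 53.5% of shared promoters in naked mole-rats, 56.1% in Damaraland mole-rats, 27.7% in guinea pigs and 70.1% in mice. The sign in the mole-rats did not hold without single heart libraries. Without the NMR35, NMR31 or NMR32 heart H3K27ac library the naked mole-rat value was -0.07, -0.02 or -0.05, and without the DMR4 heart library the Damaraland value was -0.09. Without the DMR2 liver H3K27ac library, which had the widest peaks of its group, the Damaraland value was 0.35. A consensus region merges the peaks of several animals, so its width can depend on how many libraries were merged. With peak widths taken per library, the values were 0.22 in naked mole-rats, 0.02 in Damaraland mole-rats, -0.45 in guinea pigs and 0.05 in mice.

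The H3K4me3 region at a shared promoter had a median width of 1314 bases in naked mole-rat liver and 1247 in heart, 1163 and 1255 in Damaraland mole-rats, 1291 and 1550 in guinea pigs, and 1779 and 2090 in mice. It covered a median of 97.4, 89.1, 66.4 and 97.3% of the liver H3K27ac region in the same order of species, and 93.2, 89.8, 91.8 and 93.2% of the heart region. Guinea pig liver thus had the smallest covered part, and also the widest H3K27ac regions. Within a species and tissue, H3K27ac fold rank went with H3K27ac width (rho 0.619 to 0.743 over the shared promoters) and with H3K4me3 rank (rho 0.434 to 0.665).

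Shared promoters were narrower than liver-only promoters and wider than heart-only ones in these consensus sets. Liver-only regions had median widths of 1086 bases in naked mole-rats, 2468.5 in Damaraland mole-rats, 4222 in guinea pigs and 2490 in mice. Heart-only regions had median widths of 919, 858.5, 994 and 994.5 bases in the same order. Because a wider region can more easily hold a peak of another kind, several later comparisons were repeated on regions of 500 to 2000 bases. The widest shared promoters were far longer than the median. In mice (GRCm38) the widest, chr14:25456606-25499086, covered 42481 bases in liver and 29969 in heart. In naked mole-rats (HetGla_1.0), JH168785.1:698812-737699 covered 38888 bases in liver and 25174 in heart. Its H3K27ac fold was 31.7, 68.8, 44.0, 54.9 and 60.3 in the 5 liver libraries and 50.2, 34.4 and 39.9 in the 3 heart libraries, so the tissues overlapped. Its heart H3K4me3 fold was only 5.97 and 6.64 in 2 libraries, and 2 others had no peak. The liver and heart regions were chosen on these peaks, and the wide regions named were selected as the widest in both tissues.

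The fold is the enrichment of a peak over its background as the authors' peak caller gave it, and the highest fold of a peak at a promoter was taken in each library. The median H3K27ac fold, over shared promoters with a peak in the library, was 15.0 ± 2.31 (SD, n = 5) in naked mole-rat liver and 11.6 ± 1.04 (n = 3) in heart. It was 14.6 ± 0.958 (n = 5) and 11.4 ± 3.90 (n = 5) in Damaraland mole-rats, 21.2 ± 2.402 (n = 3) and 17.5 ± 3.12 (n = 3) in guinea pigs, and 15.6 ± 1.32 (n = 4) and 14.2 ± 4.42 (n = 6) in mice. Over all single peaks in the same lists the mean of the library medians was between 5.09 and 6.49, whereas a promoter took its highest peak. Fold depends on depth and background, so it was not compared between tissues by a test, and the ranks of the promoters within each library were used instead. A rank percentile of 100 is the strongest shared promoter of a library. Of the 1000 H3K27ac peaks with the highest fold in a list, shared promoters held 73.2 ± 5.58% in naked mole-rat liver and 84.9 ± 5.65% in heart, and 65.6 ± 4.86% and 76.3 ± 17.7% in Damaraland liver and heart. They held 92.1 ± 2.00% and 88.8 ± 2.10% in guinea pig liver and heart, and 68.6 ± 4.60% and 93.6 ± 2.96% in mouse liver and heart. Of all H3K27ac peaks in the lists, shared promoters held 16.1 to 25.5% on average. Liver-only promoters, a smaller set, held 4.07 to 13.9% of the strongest liver peaks and 1.57 to 5.12% of all liver peaks on average, so their share was also higher among the strongest peaks. Heart-only promoters held 0.200 to 3.64% of the strongest heart peaks and 1.71 to 4.28% of all heart peaks. Without the DMR1 library, Damaraland heart had a median fold of 12.5 ± 3.46 (n = 4), and shared promoters held 83.9 ± 5.37% of its strongest H3K27ac peaks.

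The median H3K4me3 fold, again over shared promoters with a peak, was higher, and its SD between libraries was larger in every group. Relative to the mean, the SD was smaller than for H3K27ac in guinea pig heart and in both mouse tissues. The median H3K4me3 fold was 43.6 ± 16.3 (SD, n = 5) in naked mole-rat liver and 23.6 ± 17.0 (n = 4) in heart, 24.0 ± 5.74 (n = 3) and 60.5 ± 5.74 (n = 3) in guinea pigs, and 57.7 ± 2.11 (n = 4) and 52.7 ± 12.2 (n = 6) in mice. The 2 Damaraland liver libraries had 20.2 and 45.9, and the 5 heart libraries had 32.97 ± 20.3. Of the 1000 strongest H3K4me3 peaks of a list, shared promoters held 94.4 to 99.5% on average in every group. They held 41.2 to 84.1% of all H3K4me3 peaks. Without the NMR30 library the median fold in naked mole-rat liver was 49.9 ± 9.63 (n = 4), and without NMR34 it was 28.7 ± 16.5 (n = 3) in heart.

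The order of shared promoters by H3K27ac differed more between liver and heart than between animals. Spearman's rho between the mean ranks of the tissues was 0.561 over 16319 promoters in naked mole-rats, 0.531 over 15419 in Damaraland mole-rats, 0.666 over 12047 in guinea pigs and 0.460 over 12624 in mice. Without the DMR1 heart library the Damaraland value was 0.562. Single libraries of liver had median rho values with each other of 0.799, 0.811, 0.838 and 0.861 in the same order. Single heart libraries had 0.695, 0.633, 0.723 and 0.660. A liver and a heart library had 0.465, 0.441, 0.583 and 0.372. H3K4me3 mean ranks were closer between the tissues, with rho from 0.713 in Damaraland mole-rats to 0.795 in mice. Its order also differed more between tissues than between animals. A liver and a heart library had median H3K4me3 rho values of 0.630, 0.620, 0.644 and 0.681 in the order above. Between livers they were 0.835, 0.819, 0.895 and 0.853, and between hearts 0.748, 0.745, 0.802 and 0.780. These correlations are over promoters, which share libraries and are not independent. Of the 10% of shared promoters strongest in liver by H3K27ac, 42.0% were among the strongest 10% in heart in naked mole-rats, 36.4% in Damaraland mole-rats, 50.04% in guinea pigs and 36.3% in mice. By H3K4me3 these shares were 52.1, 46.1, 47.1 and 52.6%, lower than by H3K27ac in guinea pigs only. The differences of the 2 marks between tissues went together, with rho of 0.578 to 0.620 over the shared promoters of a species.

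**Figure D2:**
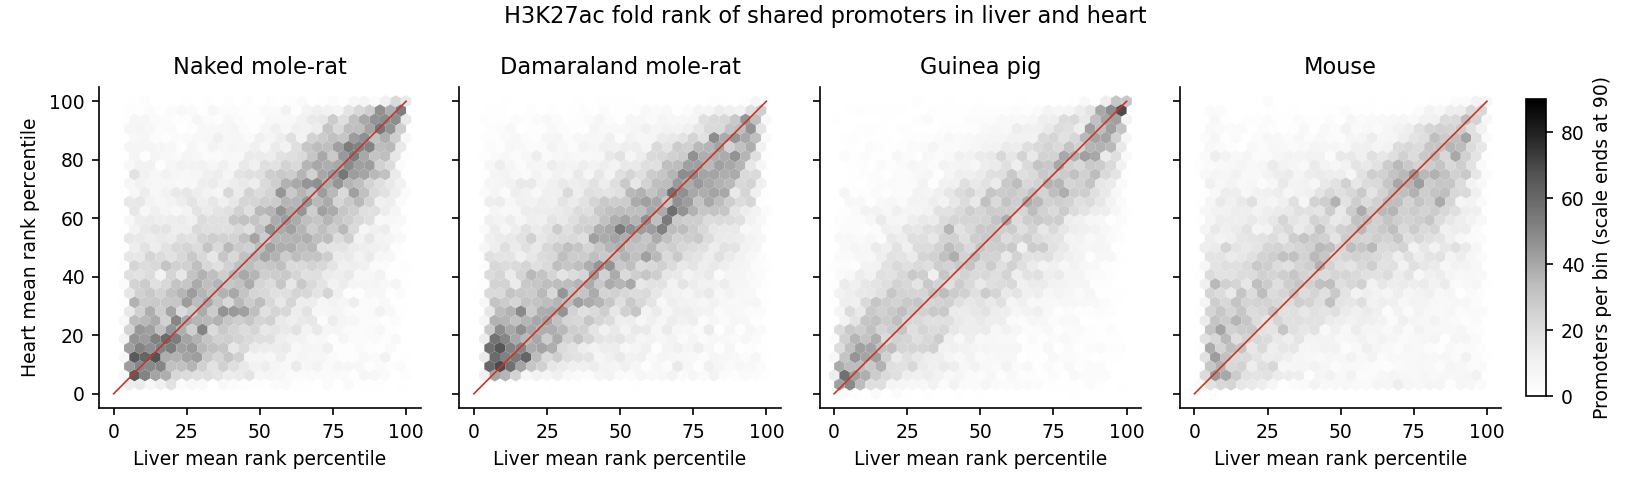
Mean rank percentile of H3K27ac fold in liver (x axis) and heart (y axis) for each shared promoter, one panel per species, with darker hexagons holding more promoters and the red line marking equal ranks. The scatter is widest in mice, where rho was 0.460, and narrowest in guinea pigs, where it was 0.666.

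The strongest promoters in both tissues held high ranks for both marks. In naked mole-rats JH168066.1:319502-321309 (1808 bases) had H3K27ac folds of 134, 105, 97.9, 66.04 and 61.6 in the 5 livers and 28.2, 45.0 and 40.6 in the 3 hearts. Its mean rank percentiles were 99.8 in liver and 97.7 in heart. The folds were higher in every liver library than in every heart library, while the ranks stood near the top in both. In guinea pigs (Cavpor3.0) DS562904.1:2788138-2792584 had H3K27ac folds of 127, 81.6 and 152 in liver and 122, 95.8 and 63.3 in heart, which overlapped. Its H3K4me3 folds were 149, 85.2 and 108 in liver and 318, 184 and 184 in heart, higher in every heart library. In mice chr9:44603161-44606301 had H3K27ac folds of 73.3, 65.7, 77.5 and 61.9 in liver, and in heart its lowest was 21.5, its median 42.4 and its highest 67.4, so the tissues overlapped. The Damaraland promoter KN122596.1:2831594-2832285 (DMR_v1.0) had 74.97, 116, 47.4, 77.5 and 65.5 in liver and 88.0, 33.4, 30.0, 60.5 and 55.7 in heart, again overlapping.

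Shared promoters could still lean to 1 tissue. A promoter was called liver-leaning when its H3K27ac rank was higher in every liver library than in every heart library, and heart-leaning in the reverse case. Only promoters with a peak in every H3K27ac library were assessed, 12657 of 16319 in naked mole-rats, 9658 of 15419 in Damaraland mole-rats, 11406 of 12047 in guinea pigs and 10551 of 12624 in mice. In naked mole-rats 1533 leaned to liver (12.1%) and 1332 to heart (10.5%). In Damaraland mole-rats 405 leaned to liver (4.19%) and 864 to heart (8.95%). In guinea pigs 1650 leaned to liver (14.5%) and 1951 to heart (17.1%). In mice 984 leaned to liver (9.33%) and 967 to heart (9.17%). With fewer libraries the rule is easier to meet: without each H3K27ac library in turn, the naked mole-rat count of liver-leaning promoters was 1722 to 2465. Without the DMR1 heart library 993 Damaraland promoters leaned to liver. These counts come from the measure that chose the promoters and are descriptions.

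H3K4me3 differed in the same direction as H3K27ac in the leaning groups. Its mean rank was higher in liver than in heart for 85.1% of liver-leaning promoters in naked mole-rats, 86.9% in Damaraland mole-rats, 83.1% in guinea pigs and 86.8% in mice. The same held for 15.3, 10.4, 17.1 and 9.93% of the heart-leaning promoters. H3K27ac width differed too, with median liver and heart widths of 1713 and 964 bases in naked mole-rat liver-leaning promoters and 989.5 and 2024.5 bases in heart-leaning ones. In mice these were 3242 and 1783.5 bases, and 1246 and 3531 bases.

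Single leaning promoters differed by large amounts. At the naked mole-rat promoter JH172334.1:2141507-2144143 the H3K27ac fold was 57.7, 47.1, 40.6, 33.8 and 45.4 in liver and 4.25, 6.13 and 3.65 in heart. The mean rank percentile was 95.4 in liver and 9.73 in heart. Its liver H3K4me3 folds ran from 44.5 to 102, and the heart library NMR34 had no peak there. In contrast JH170861.1:1242336-1243584 had 7.06, 6.93, 5.92, 4.82 and 9.78 in liver and 31.5, 61.1 and 54.8 in heart, and its heart region spanned 10610 bases against 1249 in liver. The mouse promoter chr1:133360439-133381427 had 71.8, 60.5, 78.4 and 71.3 in liver, and its highest heart fold was 6.67. That region spanned 20989 bases in liver and met 3 heart promoters. The heart values are those of 1 of them, which spanned 1582 bases. Its heart H3K4me3 fold had a median of 0 over 6 libraries and a highest value of 25.2. The mouse promoter chr11:109364222-109364799 had 4.70, 3.62, 5.10 and 3.99 in liver and a lowest heart fold of 19.0. The guinea pig promoter DS562962.1:4152291-4154434 had 9.95, 7.29 and 4.97 in liver and 41.3, 51.8 and 40.7 in heart, where its region spanned 33986 bases. The Damaraland promoter KN121670.1:1266410-1283613 had 37.5, 33.2, 43.2, 37.8 and 48.4 in liver and 5.86, 5.63, 4.71, 5.52 and 7.37 in heart. It spanned 17204 bases in liver and met 2 heart promoters, and the heart folds are those of 1 of them, of 1422 bases. Over all 16 named leaning promoters, liver minus heart mean rank percentiles were 71.5 to 91.7 for those leaning to liver and -89.5 to -78.5 for those leaning to heart. None of these had overlapping tissues, which is how they were chosen.

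The strongest H3K27ac point of a promoter lay at nearly the same place in both tissues. Between a liver and a heart library the summits, the strongest base of each peak, were a median of 66 bases apart in naked mole-rats, 71 in Damaraland mole-rats, 65 in guinea pigs and 75.5 in mice. Between 2 livers these medians were 48.5, 51, 40 and 36.5 bases, and between 2 hearts 64, 70.5, 55 and 76. The between-tissue distance was thus within 10 bases of that between hearts, and larger than that between livers. Shared promoters also lay close together. The median gap to the nearest other shared promoter was 1.66 kb in naked mole-rats, 1.33 kb in Damaraland mole-rats, 23.7 kb in guinea pigs and 19.9 kb in mice. In the same order, 49.5, 51.1, 18.3 and 22.2% of shared promoters lay within 2 kb of another. Each such region was counted separately, and whether neighbours are parts of the same promoter was not tested. Between liver-only promoters the gaps were 29.9, 113, 234 and 172 kb, but these sets are smaller. In mice the density of shared promoters was highest on chromosome 11 (8.73 per Mb of sequence seen in the lists), 19 (7.18) and 17 (6.73), and it was 2.14 on X. All liver H3K27ac regions had densities of 28.5, 28.2, 21.7 and 4.83 per Mb on these chromosomes, so 11 and 19 were dense and X sparse in both. Shared promoters were 30.6, 25.5, 30.9 and 44.3% of those regions. The Y chromosome held 5.

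A test of signal needs libraries that did not choose the promoters. Each H3K27ac library was therefore held out in turn, the promoters were rebuilt without it, and the fold of each promoter was read as a percentile within the held-out list, with 0 where no peak lay there. The other H3K27ac libraries and all H3K4me3 libraries, some from the same animal, still chose the promoters. A 1-tissue promoter had no consensus region in the other tissue, and weak regions may enter that set more easily. Whether the contrasts exceed what this choice gives was not tested. In heart, shared promoters had higher percentiles than heart-only promoters in every library of every species. The mean differences were 13.7 ± 3.03 (SD, n = 3) in naked mole-rats, 31.4 ± 15.0 (n = 5) in Damaraland mole-rats, 20.4 ± 11.1 (n = 3) in guinea pigs and 42.996 ± 13.7 (n = 6) in mice. Without DMR1 the Damaraland mean was 28.7 ± 15.9 (n = 4). In liver the difference had no common sign. It was 9.38 ± 2.29 (n = 5) in naked mole-rats, -7.06 ± 0.740 (n = 5) in Damaraland mole-rats, 0.0998 ± 1.45 (n = 3) in guinea pigs and -5.06 ± 2.72 (n = 4) in mice. A peak was recovered at 67.9% or more of shared promoters in every held-out library, the lowest being DMR1 heart. Mean recovery in heart was 96.0% against 87.6% of heart-only promoters in naked mole-rats and 96.2% against 71.3% in mice.

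**Figure D3:**
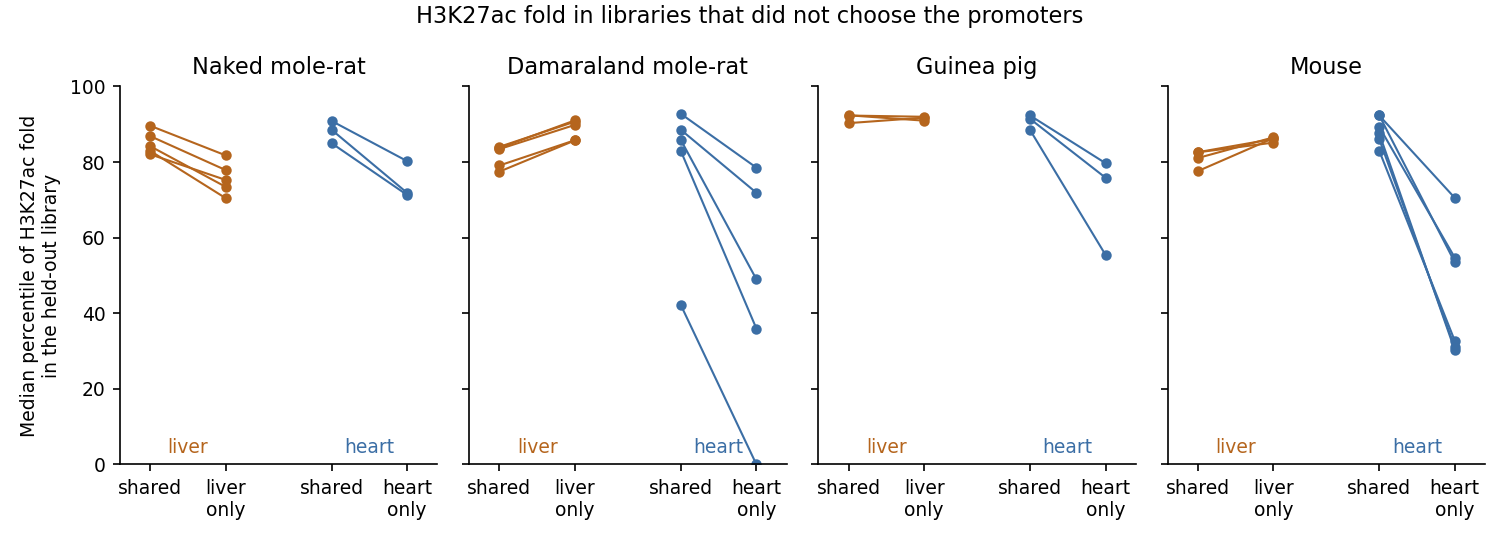
Median percentile of H3K27ac fold (y axis) at shared and 1-tissue promoters in each library left out of their choice, with a line joining the values of a library. Every heart line falls from shared to heart-only promoters, whereas the liver lines fall in naked mole-rats and rise in Damaraland mole-rats and mice.

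None of the 8 comparisons within a tissue passed the two-sided exact sign-flip permutation test after Benjamini-Hochberg adjustment over 8, at adjusted p of 0.05. The lowest raw exact p was 0.0313, in mouse heart (adjusted 0.13), and it is also the smallest that 6 libraries allow. The smallest exact p is 0.0625 with 5 libraries, 0.13 with 4 and 0.25 with 3. The difference between the tissues could be tested by permuting libraries between liver and heart. It was -38.5 in Damaraland mole-rats (exact permutation p = 0.00794, adjusted over 4 species 0.0159) and -48.1 in mice (exact p = 0.00476, adjusted 0.0159), liver contrast minus heart contrast. It was -4.30 in naked mole-rats (exact p = 0.0714, adjusted 0.0952) and -20.3 in guinea pigs, where exact p = 0.1 is the smallest 3 against 3 allow. On regions of 500 to 2000 bases the differences were -24.8 and -36.8 in Damaraland mole-rats and mice, with an adjusted exact p of 0.0159 in both. On that range the liver contrast itself was 4.79 in Damaraland mole-rats and 6.82 in mice, opposite in sign to the value over all widths. Without the 3 libraries that stood apart, the Damaraland difference between tissues was -35.3 (adjusted exact p = 0.0159). Over the Damaraland animals with both tissues as a replicate block it was -34.6, with an adjusted exact p of 0.25.

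In the lists as deposited, H3K4me1 was found at more shared promoters in liver than in heart. Libraries of both tissues were read at the liver region of the promoter. In naked mole-rats a peak lay at 52.0, 53.8, 62.3, 50.6 and 44.3% of shared promoters in the liver libraries and at 34.2, 23.0 and 16.6% in the heart libraries, with no overlap. In Damaraland mole-rats the liver values were 64.2, 56.0, 59.3, 48.4 and 57.7%, and the heart values 49.6, 44.6, 28.4, 38.7 and 20.2%. The lowest liver library there stood below the highest heart library. In guinea pigs they were 78.7, 72.8 and 73.2% in liver and 51.6, 55.2 and 56.5% in heart, with a gap between them. In mice they were 64.8, 63.2, 66.8 and 80.6% in liver and 56.2, 15.3, 47.0, 34.2 and 37.7% in heart, also without overlap. Read at the shared heart promoters themselves, the mouse heart values were 20.6 to 71.7%, which overlapped the liver values. In the other species the overlap, or the lack of it, was unchanged. Within 1 kb of each tissue's own region, an H3K4me1 peak lay at 77.6 to 90.3% of naked mole-rat shared promoters in liver and at 34.5 to 67.2% in heart. Within that distance the tissues overlapped in Damaraland mole-rats (78.8 to 93.01% in liver, 38.3 to 82.3% in heart) and in mice (90.4 to 92.4% and 34.5 to 95.5%). In guinea pigs the shares were 93.9 to 97.5% in liver and 75.9 to 84.03% in heart.

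The whole set of H3K27ac regions of a tissue, the shared promoters included, also carried H3K4me1 more often in liver. In naked mole-rats the shares were 56.6 to 69.1% of liver regions and 23.2 to 45.9% of heart regions. They were 57.9 to 77.8% and 18.9 to 55.9% in Damaraland mole-rats, 64.3 to 73.7% and 49.6 to 58.5% in guinea pigs, and 63.7 to 67.7% and 14.3 to 67.98% in mice. The mean differences were 29.6, 25.9, 14.9 and 21.7 percentage points in that order. Shared promoters read at each tissue's own regions differed by 27.5, 17.7, 31.1 and 19.5 percentage points. Whether the difference at shared promoters departs from that over all regions was not tested.

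At shared promoters, read at the liver region in both tissues, the mean difference was 28.02 percentage points in naked mole-rats (exact permutation p = 0.0179, adjusted over 4 species 0.0238). It was 20.8 in Damaraland mole-rats (exact p = 0.0159, adjusted 0.0238), 20.5 in guinea pigs (exact p = 0.1, the smallest possible) and 30.8 in mice (exact p = 0.0159, adjusted 0.0238). All tests were two-sided. Leaving out the NMR30, NMR31 or NMR32 heart library gave 24.0 to 32.8 in naked mole-rats with an adjusted exact p of 0.0635. The number of H3K4me1 peaks moved with the tissue, from 86486 to 180145 in liver lists and from 20521 to 158541 in heart lists. With each species' lists cut to equal numbers of H3K4me1 peaks, the differences were 5.49 in naked mole-rats (adjusted exact p = 0.133), 2.35 in Damaraland mole-rats (0.246), 17.2 in guinea pigs (0.133) and 12.9 in mice (0.0317). At equal numbers the mouse difference alone passed. The mouse call did not hold in 4 of 9 settings, given next. With library identifiers beginning do or vl as strata, the difference was 33.1 in mice (adjusted exact p = 0.0889) and 25.2 in naked mole-rats (0.0833). Within 1 kb it was 18.6 in mice (0.1), and with any overlap of 1 base 26.8 (0.0741). Read at the heart region it was 23.3 in naked mole-rats, 15.2 in Damaraland mole-rats and 24.3 in mice, with an adjusted exact p of 0.0635 in all 3. With pairs of tissues from the same animal as a replicate block, the difference was 24.4 over 3 naked mole-rats and 16.6 over 4 Damaraland mole-rats, both with an adjusted exact p of 0.25. The smallest exact p is 0.25 with 3 animals and 0.13 with 4.

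**Figure D4:**
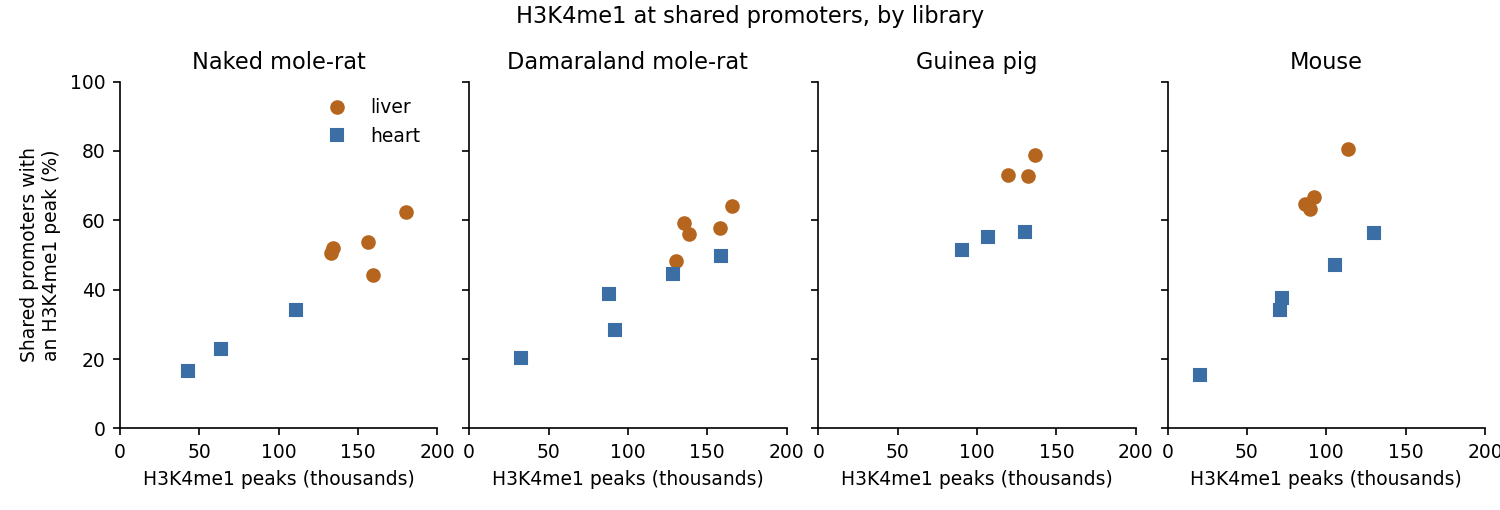
Share of shared promoters with an H3K4me1 peak (y axis, percent) against the number of H3K4me1 peaks in the list (x axis, in units of 1000 peaks), one point per library, circles for liver and squares for heart. Both tissues were read at the liver region of the promoter. Libraries with more peaks mostly have higher shares, and liver points lie above the heart points at like numbers in guinea pigs and mice.

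H3K4me1 shares of shared and 1-tissue promoters were then compared within each library. In liver the share was lower at shared than at liver-only promoters in 5 of 5 naked mole-rat libraries (52.6 against 61.3%), 5 of 5 Damaraland libraries (57.1 against 77.2%), 3 of 3 guinea pig libraries (74.9 against 86.8%) and 3 of 4 mouse libraries (68.9 against 79.3%). The differences were -8.68 ± 2.53, -20.0 ± 2.12, -11.9 ± 2.32 and -10.4 ± 10.9 percentage points (SD over 5, 5, 3 and 4 libraries). The exception was the mouse library 85924, with a difference of 5.56. In heart they were -1.95 ± 0.859 in naked mole-rats, 3.85 ± 3.77 in Damaraland mole-rats, 1.77 ± 4.85 in guinea pigs and 8.55 ± 5.83 in mice (SD over 3, 5, 3 and 5 libraries). None of the 8 passed the exact sign-flip permutation test (adjusted p 0.167 to 0.5), and the design could not give less than 0.0625 unadjusted. With a peak counted on any overlap of 1 base, the liver sign turned in 3 species, to 1.35 in naked mole-rats, 1.94 in guinea pigs and 3.31 in mice.

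The liver contrast minus the heart contrast was -6.73 in naked mole-rats, -23.9 in Damaraland mole-rats and -19.0 in mice, each with an adjusted exact permutation p of 0.0238. It was -13.6 in guinea pigs, with the smallest possible exact p of 0.1. On regions of 500 to 2000 bases it was -8.68 (adjusted exact p = 0.0357) in naked mole-rats and -11.2 (0.0317) in Damaraland mole-rats. It was 9.83 (0.133) in guinea pigs, opposite in sign, and -2.22 (0.778) in mice, so the mouse call did not hold on that range. Without 1 library the naked mole-rat value was -7.78 to -6.12 and passed in 1 of 8 cases, the mouse value was -24.3 to -16.0 and passed in 5 of 9 cases, and the Damaraland value passed in all 10. The 4 mouse libraries whose removal ended the call were the heart libraries 17_3498, 17_3501 and 17_3500 and the pool of 3 animals, and for naked mole-rats they were all except the liver library NMR34. With library identifiers as strata the difference was -7.08 in naked mole-rats (adjusted exact p = 0.0833) and -14.4 in mice (0.267). In naked mole-rats it was -2.40 with an overlap of 1 base (0.25) and -2.68 within 1 kb (0.214). With the animal as a replicate block the differences were -8.20 in naked mole-rats and -23.5 in Damaraland mole-rats, with an adjusted exact p of 0.25 in both.

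Within the shared promoters, those leaning to liver carried H3K4me1 more often than those leaning to heart in every library of both tissues, over all widths. In liver the difference was 14.4 ± 3.804 percentage points in naked mole-rats, 21.7 ± 2.86 in Damaraland mole-rats, 7.38 ± 2.42 in guinea pigs and 17.4 ± 8.83 in mice, positive in all 17 libraries. In heart it was 13.1 ± 6.38, 23.3 ± 8.33, 17.9 ± 0.909 and 31.3 ± 8.32, positive in all 16. None of the 8 passed (adjusted exact sign-flip permutation p 0.13 to 0.25, smallest possible 0.0625 before adjustment). The liver regions used are wider at liver-leaning promoters. On regions of 500 to 2000 bases the liver values were 2.50, 0.624, -6.24 and -2.85, and the heart values 4.203, 8.99, 8.50 and 13.4.

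Transcription factors of liver were read at the shared promoters of both mole-rats. CEBPA, FOXA1, HNF4A, HNF6 and RXRA are regulators known to act in hepatocytes, and TBX5 is a regulator of heart development. CEBPA peaks lay at 29.3% (NMR30) and 22.3% (NMR35) of naked mole-rat shared promoters and at 11.7% (DMR1) and 29.2% (DMR4) of Damaraland ones. RXRA peaks lay at 14.9, 36.3, 17.2 and 45.5% in the same animals. HNF4A peaks lay at 5.66, 19.0 and 31.1% in NMR30, NMR35 and DMR4, and FOXA1 peaks at 9.18, 9.20, 6.29 and 7.24% in NMR30, NMR35, DMR1 and DMR4. HNF6 peaks lay at 9.82% in DMR1. RXRA peaks were more frequent at shared promoters than over all liver H3K27ac regions, the shared promoters included, in 4 of 4 libraries, where they lay at 8.80, 18.3, 15.0 and 33.7%. For HNF4A this held in 3 of 3 libraries (3.22, 11.5 and 21.5% over all regions), for CEBPA in 2 of 4, for FOXA1 in 1 of 4 and for HNF6 in 0 of 1. The comparison with all regions was made without a width limit. At heart-only promoters RXRA peaks lay at 2.66, 6.29, 1.82 and 3.603%. The shares of HNF4A and RXRA varied most between animals, and the lists held 19398 to 122941 peaks.

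Factor peaks were less frequent at shared than at liver-only promoters in 15 of 16 liver libraries. The mean difference per animal was -6.54 percentage points in NMR30, -7.42 in NMR35, -21.6 in DMR1 and -23.9 in DMR4. Over the 4 animals it was -14.9 ± 9.16 (SD, two-sided exact sign-flip permutation p = 0.13, the smallest 4 animals allow). On regions of 500 to 2000 bases it was -6.46. The exception was RXRA in NMR35, with 36.3% of shared and 33.3% of liver-only promoters. None of the 4 factors read in an animal had a peak at 60.7% of shared promoters in NMR30, 49.8% in NMR35, 70.4% in DMR1 and 41.0% in DMR4. At liver-only promoters the shares without a peak were 52.7, 46.9, 38.4 and 20.1%. All 4 factors were present at 1.08 to 4.09% of shared promoters and at 3.56 to 17.4% of liver-only ones. The 4 were CEBPA, FOXA1, HNF4A and RXRA, but DMR1 had HNF6 in place of HNF4A. These shares were read without a width limit and were not set against all liver H3K27ac regions.

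Over all widths, the factor share was ordered by the lean to liver. Divided into 5 equal classes by liver minus heart H3K27ac rank, RXRA in DMR4 lay at 22.6, 37.6, 44.5, 52.5 and 70.2% of promoters, from the class leaning most to heart to that leaning most to liver. CEBPA in DMR4 lay at 11.6, 19.7, 27.1, 35.1 and 52.7%. HNF4A in NMR35 lay at 9.47, 14.2, 19.0, 21.7 and 30.6%. In all 16 liver libraries each class had a higher share than the class before it. The median liver width rose with the class too, from 733.5 to 1422.5 bases in naked mole-rats and from 854 to 2028.5 in Damaraland mole-rats. The classes were not compared at like widths. Liver-leaning minus heart-leaning promoters differed by 31.1 percentage points in DMR1, 47.2 in DMR4, 16.6 in NMR30 and 22.9 in NMR35. The mean was 29.4 ± 13.3 (SD over 4 animals, exact sign-flip permutation p = 0.13, the smallest possible), and all 16 liver libraries were higher at the liver-leaning promoters. They were higher in 16 of 16 on regions of 500 to 2000 bases too, with a mean of 12.7. The factor libraries come from animals whose H3K27ac also chose the leaning groups, but no factor peak was used in that choice. At the naked mole-rat promoter JH172334.1:2141507-2144143, which leaned to liver, 7 of 8 factor libraries had a peak, and 5 of 5 liver and 2 of 3 heart H3K4me1 libraries did too. The Damaraland promoter KN121670.1:1266410-1283613, of 17204 bases in liver, had a peak in 9 of 9 factor libraries, TBX5 included. The other named liver-leaning promoters had fewer, 5 of 8 at JH173192.1:2110494-2114233 and 2 of 9 at KN121943.1:281884-285847. The heart-leaning naked mole-rat promoter JH170861.1:1242336-1243584 had none in 8, read over its 1249 liver bases. Of the other named heart-leaning promoters, KN122859.1:4663587-4664839 had a peak of HNF6 alone. JH167923.1:1214462-1215020 and KN121537.1:1026610-1027316 had none.

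**Figure D5:**
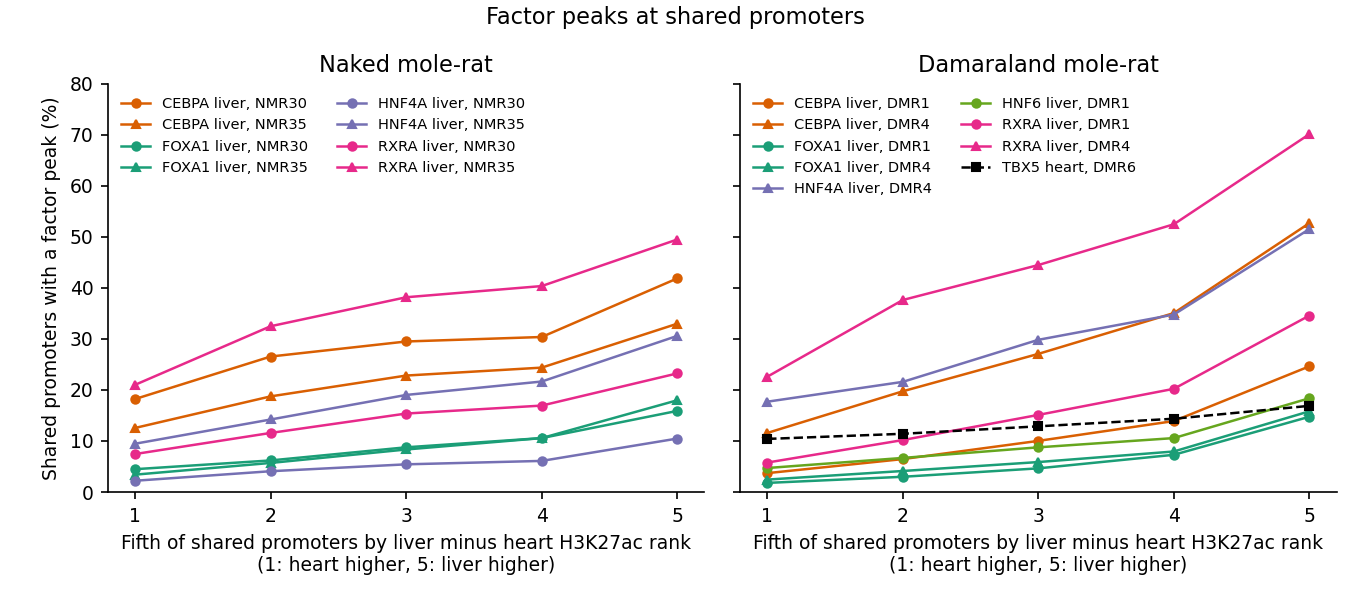
Share of shared promoters with a peak of each factor library (y axis, percent) in 5 equal classes of the shared promoters ordered by liver minus heart H3K27ac rank (x axis, 1 leaning most to heart, 5 most to liver). Every liver library has its highest share in class 5, and the line of TBX5 in heart is flatter, from 10.4 to 16.9%. All libraries were read at the liver region, whose median width also rises from class 1 to class 5.

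TBX5, read in the heart of DMR6, lay at 13.2% of Damaraland shared promoters, 14.9% of liver-only and 14.5% of heart-only promoters. It had a peak at 25.4% of liver-leaning and 12.5% of heart-leaning shared promoters, a difference of 12.9 percentage points. Shared promoters were read at their liver region for TBX5 too. The median liver width was 3155 bases at liver-leaning and 1106.5 at heart-leaning promoters, whereas their heart regions had 1651 and 2600. TBX5 was not read at the heart regions of shared promoters, so a preference for either group cannot be told from these shares. On regions of 500 to 2000 bases it lay at 9.41% of shared and 6.65% of liver-only promoters, the reverse order. The leaning difference on that range was 5.43 percentage points. This is 1 library with 139418 peaks, so no replicate check of it was possible.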

How the data were processed

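ChIP-seq peak lists of 116 libraries, out of 160 samples, were analysed; the input and 4C samples, and 1 sample whose title and organism disagree, were not analysed here. Each deposited list gives a peak's position, summit and values from the authors' peak caller, MACS2 per the submitters' processing notes; which aligner was used, and in what version, is not given in the sources used here. Per peak, the authors deposited a linear fold (a ratio to local background), a −log10 p-value and a −log10 q-value from the caller, and the deposited score is a whole number that was not used. Builds, per the file names, are GRCm38 (mouse), HetGla_1.0 (naked mole-rat), DMR_v1.0 (Damaraland mole-rat) and Cavpor3.0 (guinea pig). Lists were made per library, and the heart H3K4me1 lists of mouse 33017 and DMR1 carry a tag in their names that the sources used here do not explain.

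Peaks of a library that overlapped were merged, consensus regions needed 2 animals, and an overlap was at least 50% of the shorter region. The members and lists were chosen with earlier results of these data known. Named promoters, none from mouse chromosome 18, were per species the 2 with the highest lowest rank over tissues and marks, the 2 with the largest rank difference in each direction among those without overlap between tissues, and the 1 widest in both tissues; those printed were picked from these after their values were seen. Gene lists and cell type markers were not analysed here, because no annotation of these builds was used.

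H3K4me1 and factor libraries, and H3K27ac libraries held out in turn, were compared with two-sided exact permutation tests over libraries or animals, with Benjamini-Hochberg adjustment and a threshold of 0.05. Libraries of the same animal in both tissues were 3 naked mole-rats, 4 Damaraland mole-rats and 3 guinea pigs for H3K4me1, per the labels; no mouse gave both. Replicates are animals named in the labels. Alternatives were another overlap, a stricter −log10 q of 4, at least 3 animals, equal numbers of peaks, another width range, longer scaffolds, library identifiers beginning do or vl as strata, and each library left out. Peak lists hold no read counts, so depth is unknown; intervals are 95% Wilson intervals and cover counting error only. Scripts were tested on simulated data and run with Python 3.11.15, NumPy 2.4.6, SciPy 1.17.1 and Matplotlib 3.10.9.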

Additional observations from a re-analysis of the deposited data

Results flagged for a closer look

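Some libraries lay far from the others of their group at the shared promoters: the gap of the highest or lowest library to its neighbour, relative to the group's range, exceeded Dixon's critical value. There were 5 among 45 groups of values tested, where chance gives about 1 in 20 groups. The share of shared promoters with a peak was 81.6% in the NMR30 liver H3K4me3 library against 96.6 to 98.98% in the others, and 64.6% in the NMR34 heart H3K4me3 library against 96.2 to 99.7%. It was 69.4% in the DMR1 heart H3K27ac library against 91.1 to 99.7%, and 88.6% in the DMR11 heart H3K4me3 library against 97.0 to 99.7%. The median peak width at shared promoters was 1115 bases in the DMR2 liver H3K27ac library against 667 to 768 in the others.

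In 5 cases the contrast of shared with 1-tissue promoters differed between liver and heart by the exact permutation test of that difference. For the share with H3K4me1 the liver contrast minus the heart contrast was -6.73 percentage points in naked mole-rats, -23.9 in Damaraland mole-rats and -19.0 in mice. For the percentile of H3K27ac fold in held-out libraries it was -38.5 in Damaraland mole-rats and -48.1 in mice. The held-out values share the libraries that chose the promoters, and the same mark chose both sets.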

How the results depend on the processing

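The number of shared promoters stayed within 1.5 times in all 30 settings and all 64 cases of a library left out, from 10921 to 17058 in naked mole-rats. Leaving out the DMR1 or DMR4 liver H3K4me3 library leaves 1 library and no consensus, so it gave no value. Alternatives added after seeing the data were equal numbers of H3K4me1 peaks with the promoters as reported, the 3 libraries dropped together, the leaning contrasts, the leaning counts without each library, group means without the libraries that stood apart, and all alternatives of the liver-against-heart differences.

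The log2 width of heart over liver changed with widths taken per library to 0.22 (naked mole-rat), -0.45 (guinea pig) and 0.0495 (mouse). Without 1 library it ranged from -0.0703 to 0.13 in naked mole-rats (-0.0703, -0.02 and -0.05 without NMR35, NMR31 and NMR32 heart), from -0.0856 to 0.35 in Damaraland mole-rats (-0.0856 without DMR4 heart), and from -0.45 to -0.18 in guinea pigs. Rank rho was 0.592, 0.707 and 0.507 in naked mole-rat, guinea pig and mouse when ranked by −log10 q; without 1 library it was 0.528 to 0.565 in naked mole-rats and 0.635 to 0.668 in guinea pigs. Liver-leaning counts were 1722 to 2465 in naked mole-rats and 479 to 993 in Damaraland mole-rats without 1 library.

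The liver minus heart H3K4me1 difference no longer passed in these settings, all by exact permutation. With equal peak numbers throughout it was 5.44 (naked mole-rat) and 1.48 (Damaraland), and with the promoters as reported 5.49 and 2.35. Read at the heart region it was 23.3, 15.2 and 24.3 in naked mole-rat, Damaraland mole-rat and mouse (adjusted p 0.0635). In mice it was 26.8 with a 1-base overlap and 18.6 within 1 kb. With library identifiers as strata it was 25.2 in naked mole-rats and 33.1 in mice. With the replicate block by animal it was 24.4 and 16.6 in the mole-rats, and the block left guinea pigs at 20.5. Without 1 library it was 24.0 to 32.8 in naked mole-rats.

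The H3K4me1 liver-against-heart difference was -2.40 with a 1-base overlap and -2.68 within 1 kb in naked mole-rats, and 9.83 (guinea pig) and -2.22 (mouse) on regions of 500 to 2000 bases. With strata it was -7.08 and -14.4 in naked mole-rat and mouse, and with the replicate block -8.20 and -23.5 in the mole-rats. Without 1 library it was -7.78 to -6.12 in naked mole-rats and -24.3 to -16.0 in mice. The held-out difference lost its call only under the replicate block, at -34.6 in Damaraland mole-rats.

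Contrasts of shared with 1-tissue promoters, none of which passed, changed sign as follows. For H3K4me1 in naked mole-rat liver and heart, guinea pig liver and mouse liver they were 1.35, 3.75, 1.94 and 3.31 with a 1-base overlap, and 5.58, 8.26, 2.23 and 5.16 within 1 kb. On regions of 500 to 2000 bases they were -0.95 in Damaraland heart, 1.57 and -8.26 in guinea pig liver and heart, and -1.63 in mouse heart. The held-out contrast was 4.79 and 6.82 in Damaraland and mouse liver on that range, and -0.56 to 0.875 in guinea pig liver without 1 library, where -0.014 was reached without GuineaPig7 and -0.56 without GuineaPig9. The H3K4me1 difference of leaning promoters was -6.24 in guinea pig liver and -2.85 in mouse liver on that range. Depth is unknown, and list lengths limit every share.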
